A study of Mus musculus with 2 samples.

Results

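The complement system genes described here are 33 mouse genes chosen by name: complement components, lectin-pathway genes, regulators and receptors. All 33 were found by gene identifier, among 43346 Ensembl genes in gene tables of 69691 entries, and they hold 114 annotated transcripts. The study measured polyA-selected RNA by sequencing in the liver of 1 adult female C57BL/6J mouse, an inbred strain, aged 10 weeks, with no treatment or mutation named. Its 2 libraries are labelled as technical replicate 2 (library 2) and technical replicate 1 (library 1) of the same biological replicate. Library 2 is dated to 2015 and library 1 carries no date, so the library and its date or handling cannot be told apart. With 1 animal and no second condition, the data bear on the abundance of complement transcripts in this liver and on the agreement between repeat libraries. Every SD is taken over both technical libraries (n = 2), so it holds no variation between animals.

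Complement is a cascade of plasma proteases and binding proteins that tags foreign surfaces and immune complexes, attracts leukocytes and lyses membranes. It starts through the classical pathway (C1q with its proteases), the lectin pathway (mannose-binding lectins and ficolins with theirs) or the alternative pathway (factors B and D and properdin). All these routes meet at the cleavage of C3, and the terminal components then assemble into a membrane attack complex, while soluble and membrane-bound regulators protect host cells. Hepatocytes make most of the circulating components, whereas C1q and properdin come largely from macrophages and other leukocytes, and factor D from fat tissue.

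The deposited gene tables held 19525500 expected counts in library 2 and 23309905 in library 1. Transcripts encoded by the mitochondrial genome took 14.9% of all TPM (an abundance scaled by transcript length and by the sum over all transcripts) in library 2 and 40.7% in library 1. All 6 hepatocyte markers examined were detected in both libraries, with summed levels of 67847 TPM in library 2 and 27473 TPM in library 1. Of the 7 Kupffer cell (liver macrophage) markers, 7 were at 1 TPM or more in library 2 and 6 in library 1, and none of the 4 T and NK cell markers reached that level in either.

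Complement transcripts were abundant in both libraries. At a threshold of 1 TPM, library 2 held 30 of the 33 genes, library 1 held 29, and 28 passed in both. At least 100 TPM was reached by 18 genes in library 2 and by 12 in library 1. The median level of the 33 genes, as log2(TPM + 0.1) averaged over the libraries, was 6.50, beside 2.25 over the 12728 genes tested between the libraries. Together the 33 genes made up 1.33% of nuclear protein-coding TPM in library 2 and 1.30% in library 1 (1.32% ± 0.0156, SD, n = 2). Their summed expected counts were far apart, at 368743 in library 2 and 178345 in library 1. The near equal share therefore rests on TPM, which divides by estimated lengths, and a share by counts was not computed. As a share of all TPM, which includes the mitochondrial transcripts, they made up 0.978% in library 2 and 0.490% in library 1.

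**Figure D1:**
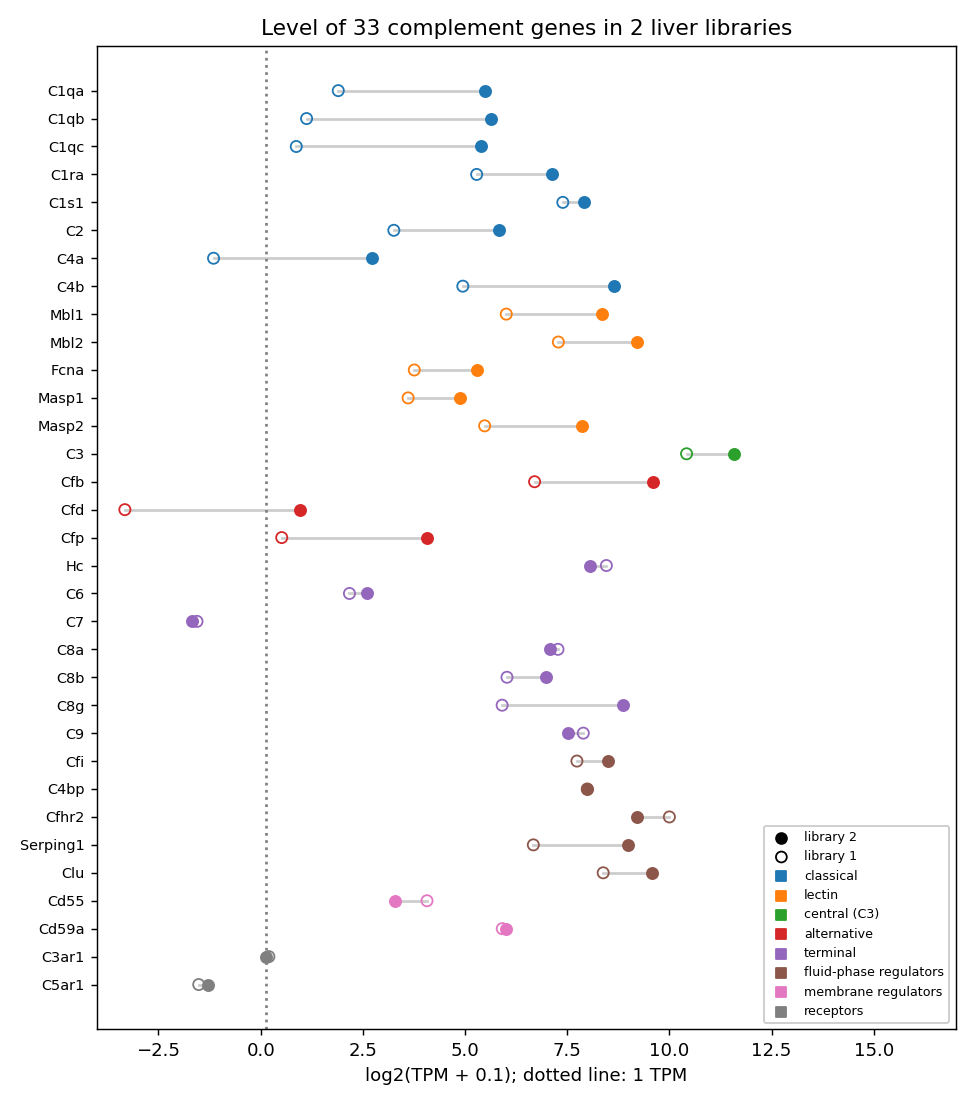
Level of each complement gene as log2(TPM + 0.1) on the horizontal axis, with filled points for library 2, open points for library 1, colours for the role of the gene and a dotted line at 1 TPM. C3 is highest in both libraries (3059 TPM in library 2 and 1370 TPM in library 1), and Cfd is listed at 0 TPM in library 1.

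The summed share of nuclear protein-coding TPM stayed near 1.3% while its make-up differed between the libraries. C3 alone took 31.3% of complement TPM in library 2 and 28.0% in library 1. In expected counts it held 191970 of the 368743 of all 33 genes in library 2 and 47585 of 178345 in library 1. Its near equal share thus holds for TPM only. Fluid-phase regulators took 25.3% in library 2 and 39.3% in library 1, and terminal components took 12.1% in library 2 and 17.8% in library 1. Classical-pathway genes took 10.0% in library 2 and 5.20% in library 1, lectin-pathway genes 12.5% in library 2 and 5.92% in library 1, and alternative-pathway genes 8.06% in library 2 and 2.15% in library 1. By summed TPM the initiating arms therefore weighed more in library 2, and the terminal components and regulators weighed more in library 1. These shares depend on estimated lengths. In expected counts, library 2 and library 1 held 39807 and 14988 for classical genes, 18477 and 8046 for lectin genes, and 20568 and 5051 for alternative genes. Terminal genes held 33683 and 39423, and fluid-phase regulators 62607 and 60750. Single genes dominated some of these sums. Cfhr2 gave 587.4 of the 2473 TPM of fluid-phase regulators in library 2 and 1024 of 1927 in library 1. Cfb gave 769.8 of the 788.3 TPM of alternative-pathway genes in library 2 and 104.0 of 105.4 in library 1. After C3, the highest genes in library 2 were Cfb, Clu and Mbl2, and in library 1 they were Cfhr2, Hc and Clu.

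**Figure D2:**
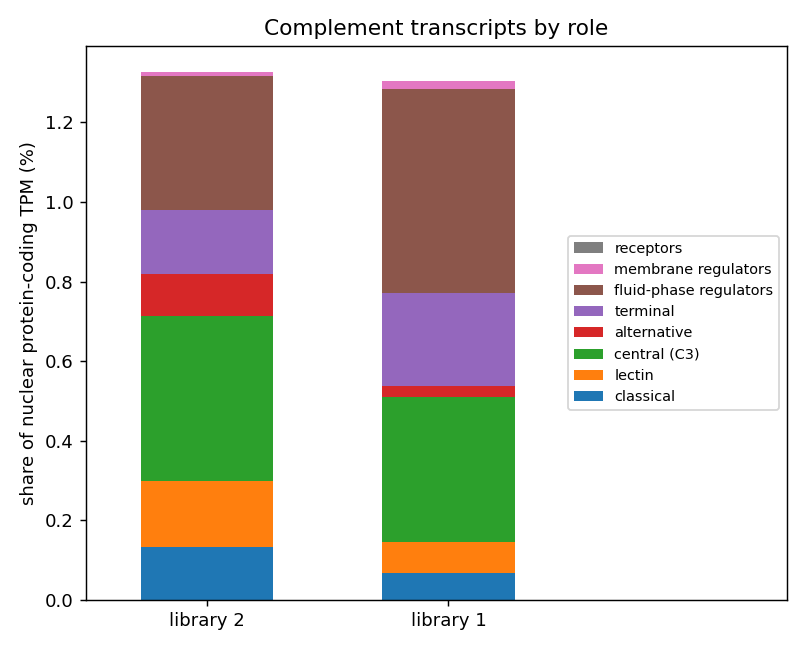
Summed TPM of complement genes by role, as percent of nuclear protein-coding TPM, in library 2 (left bar) and library 1 (right bar). The bars reach 1.33% in library 2 and 1.30% in library 1, with larger classical, lectin and alternative segments in library 2 and a larger fluid-phase regulator segment in library 1.

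To compare single genes, rounded expected counts were scaled with TMM (a trimmed mean of ratios that assumes most genes do not differ), and the log2 fold of library 2 over library 1 was taken with a prior count of 0.5. Since each side is 1 library, there is no replicate check and no p-value, and a gene is called past 2-fold when its log2 fold is at least 1 in size. Each interval in square brackets is an exact 95% binomial interval that covers counting error only. All 33 genes had a summed count of at least 20 and were tested. Of them 16 were past 2-fold higher in library 2, where 33.0% of all tested genes were, and 4 were past 2-fold lower, where 24.0% of all tested genes were. The median fold of the 33 genes was 0.97, beside 0.04 over all tested genes. Without TMM, scaling by total counts moved the median of all genes to 0.62 and that of the complement genes to 1.55, with 17 called higher and 2 lower. As ratios of the deposited TPM the medians were 0.84 for all genes and 1.27 for complement genes, with 19 called higher and 0 lower. The share of all tested genes past 2-fold was not computed by total counts or by TPM, so these counts have no background beside them.

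**Figure D3:**
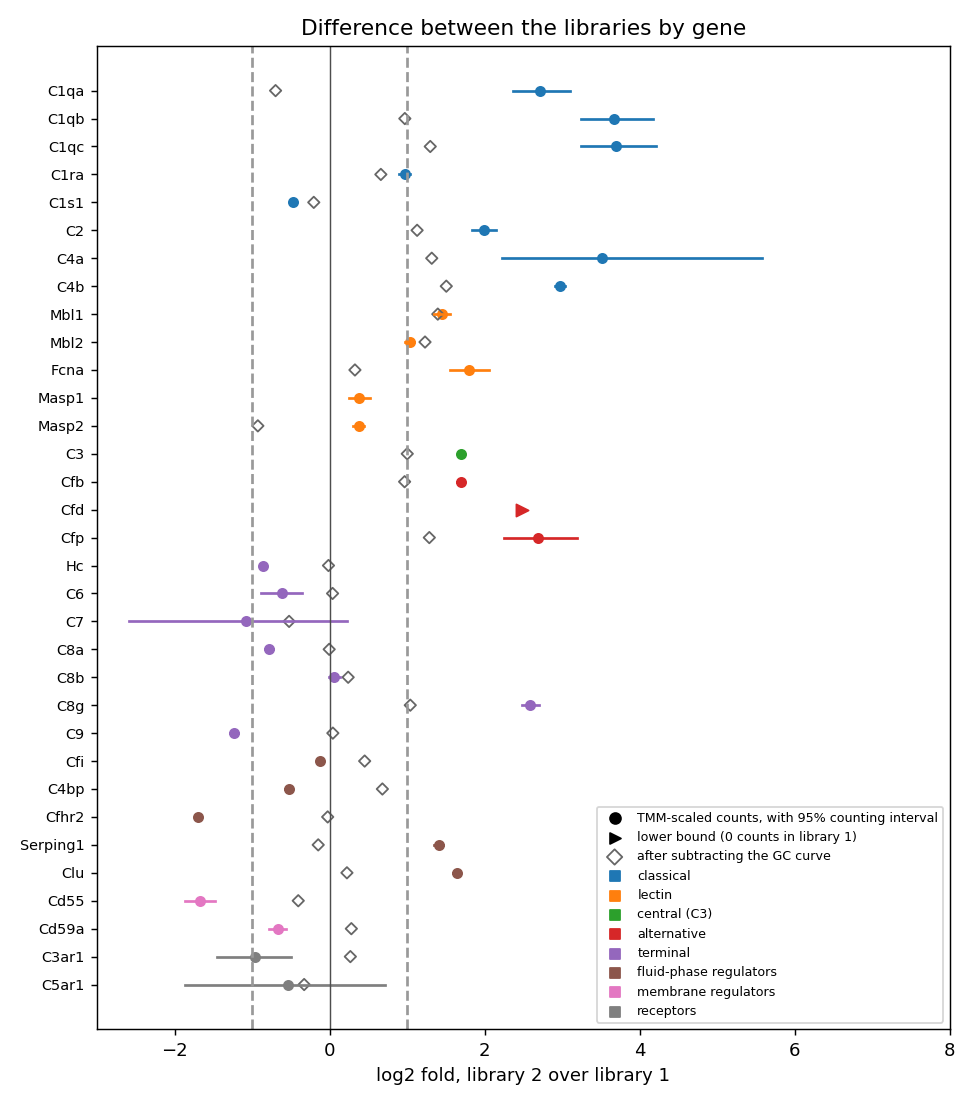
Log2 fold of library 2 over library 1 for each complement gene, with coloured points for TMM-scaled counts, bars for the 95% counting interval, open diamonds for the fold after subtracting the curve on GC content, and dashed lines at 2-fold in either direction. Classical and alternative genes lie mostly right of the upper line, and the triangle of Cfd is a lower bound at 2.48.

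The 3 chains of C1q, the recognition protein of the classical pathway, were far higher in library 2 than in library 1, although C1qa turned to lower once a curve on GC content, described further on, was subtracted. C1qa had 44.6 TPM in library 2 and 3.63 TPM in library 1, a mean of 24.1 ± 29.0 TPM (SD, n = 2). C1qb had 49.9 TPM in library 2 and 2.08 TPM in library 1, and C1qc had 41.9 TPM in library 2 and 1.73 TPM in library 1. The genes are neighbours on the minus strand of chromosome 4 (mm10), with C1qb at chr4:136880129-136886187, C1qc at chr4:136889804-136893065 and C1qa at chr4:136895917-136898803. Their log2 folds were 2.72 [2.37, 3.10] for C1qa, 3.67 [3.24, 4.17] for C1qb and 3.69 [3.25, 4.21] for C1qc. The chains assemble in equal numbers in the protein. C1qb stood at 1.19 times C1qc in library 2 and 1.20 times in library 1, while C1qa stood at 1.07 times C1qc in library 2 and 2.10 times in library 1.

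The C1q transcripts are among the most GC-rich of the complement genes, at 59.5% for C1qa, 57.4% for C1qb and 56.6% for C1qc. Their collagen-like stretch, where a glycine codon (GGN) recurs at every triplet of codons, is richer still. The lines below give 10 glycine triplets of each chain from GENCODE M21 transcripts on GRCm38, 5′ to 3′ on the minus strand, with the GGN codons in capitals. They are shown because the folds ran with GC content, as described further on.
C1qa, chr4:136896619-136896708, exon 3 of 3: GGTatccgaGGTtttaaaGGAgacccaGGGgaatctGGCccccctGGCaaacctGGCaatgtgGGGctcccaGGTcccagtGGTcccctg
C1qb, chr4:136882128-136882217, exon 2 of 3: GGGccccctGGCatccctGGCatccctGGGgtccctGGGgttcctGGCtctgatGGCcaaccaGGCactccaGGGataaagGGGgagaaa
C1qc, chr4:136890493-136890582, exon 3 of 3: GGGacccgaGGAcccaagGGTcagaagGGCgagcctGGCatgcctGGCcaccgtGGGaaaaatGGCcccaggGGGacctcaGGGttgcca
These windows are 62.2% GC in C1qa, 65.6% in C1qb and 67.8% in C1qc, above the value of each whole transcript.

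Kupffer cells are the main source of C1q in liver. Of the 7 Kupffer cell markers, 5 were past 2-fold higher in library 2 (33.0% of all tested genes were) and 0 were lower (24.0% were). The 7 together had 148.0 TPM in library 2 and 32.6 TPM in library 1. Clec4f, a lectin particular to these cells in mice, had 59.6 TPM in library 2 and 7.82 TPM in library 1. Adgre1 and Timd4, which also mark them, had log2 folds of -0.32 and -0.71 and were not past 2-fold. Their GC contents were 47.5% and 44.4%, while those of the 5 markers called higher ran from 51.5% to 55.9%. Vsig4, a Kupffer cell receptor named further on, was past 2-fold lower, at -1.34. The libraries are technical replicates of the same biological replicate, and bulk tissue cannot tell fewer cells of a type from less RNA per cell. The part of Kupffer cells or of GC content in the C1q difference was not tested.

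The proteases of C1 differed less than its recognition chains. C1ra, the protease that activates C1s, had 140.8 TPM in library 2 and 38.9 TPM in library 1, with a log2 fold of 0.97 [0.90, 1.04], just short of 2-fold. By total counts C1ra was at 1.55 and by TPM at 1.85, both past 2-fold, and after the GC curve at 0.66. C1s1, the protease that cleaves C4 and C2, had 239.5 TPM in library 2 and 168.0 TPM in library 1. Its fold was -0.48 [-0.52, -0.43] with TMM, and the sign turned to 0.10 by total counts and 0.51 by TPM. These genes lie next to each other on chromosome 6, at chr6:124512405-124523443 for C1ra and chr6:124530345-124542359 for C1s1. Their ratio was unequal between the libraries, with C1s1 at 1.70 times C1ra in library 2 and 4.32 times in library 1.

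C4b and C2, whose products form the C3-cleaving enzyme of the classical and lectin pathways, were both higher in library 2. C4b had 398.4 TPM in library 2 and 30.7 TPM in library 1, a log2 fold of 2.98 [2.91, 3.04]. C2 had 56.6 TPM in library 2 and 9.47 TPM in library 1, a log2 fold of 1.99 [1.83, 2.15]. C2, at chr17:34862604-34898265, overlaps Gm20547 on the same strand, a gene model at chr17:34856412-34882042 that also overlaps Cfb and was picked after its values were seen. Gm20547 held 8.63 expected counts in library 2 and 789.7 in library 1, against 1984 for C2 in library 2 and 399.9 in library 1. With the counts of Gm20547 added to those of C2, the log2 fold of C2 was 0.42 and no longer past 2-fold.

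C4a, a close copy of C4b known in mice as sex-limited protein, stood far below it. It was listed at 6.55 TPM in library 2 and 0.35 TPM in library 1, from 62.8 expected counts in library 2 and 4.49 in library 1, and the annotation classes the gene as a processed transcript. The authors' credibility interval, of a level they do not state, ran from 5.06 to 9.62 TPM in library 2 and from 0.416 to 1.82 TPM in library 1. Its log2 fold of 3.52 [2.23, 5.57] rests on those few counts. Of 5367 aligned bases of the transcripts C4b-201 and C4a-207, 207 differed (96.1% identity), and 35.2% of the 50-base words of C4b-201 also occurred in C4a-207, so the division of reads between the copies is uncertain. The stretch of 90 bases with the most differences is given below for both, 5′ to 3′ on the minus strand from GENCODE M21 on GRCm38, with the 14 differing bases in capitals, because these are the bases by which reads can be assigned.
C4b-201, chr17:34735430-34735519, exon 21 of 41: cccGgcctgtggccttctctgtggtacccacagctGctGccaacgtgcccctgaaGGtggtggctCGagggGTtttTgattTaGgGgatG
C4a-207, chr17:34816086-34816175, exon 21 of 41: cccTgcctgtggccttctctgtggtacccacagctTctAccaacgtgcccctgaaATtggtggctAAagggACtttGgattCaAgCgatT
Taken as the authors assigned them, C4b outnumbered C4a in both libraries, and both were higher in library 2.

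In the lectin pathway, the sugar-binding proteins were past 2-fold higher in library 2 by TMM-scaled counts and the proteases were not. Mbl2, the mannose-binding lectin C that hepatocytes secrete, had 590.9 TPM in library 2 and 155.7 TPM in library 1, a log2 fold of 1.03 [0.97, 1.09]. Mbl1, mannose-binding lectin A, had 326.2 TPM in library 2 and 64.3 TPM in library 1, a log2 fold of 1.45 [1.35, 1.55]. Fcna, ficolin A, had 39.0 TPM in library 2 and 13.4 TPM in library 1, a log2 fold of 1.79 [1.55, 2.05] that came to 0.33 after the GC curve, no longer past 2-fold. Mbl2 exceeded Mbl1 in both libraries, by 1.81 times in library 2 and 2.42 times in library 1. Like C1q, these lectins carry a collagen-like stretch, but in transcripts of lower GC content, 49.1% for Mbl2 and 50.1% for Mbl1. The Mbl2 stretch, on the plus strand of GENCODE M21 on GRCm38 with its GGN codons in capitals, is shown beside those of C1q for comparison.
Mbl2, chr19:30234936-30235025, exon 4 of 6: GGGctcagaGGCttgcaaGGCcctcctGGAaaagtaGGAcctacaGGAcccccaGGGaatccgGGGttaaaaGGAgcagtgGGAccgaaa
It is 58.9% GC, below the windows of all 3 C1q chains.

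Masp1 and Masp2, the proteases that the lectins carry, had small folds of counts. Masp1 had 29.2 TPM in library 2 and 12.1 TPM in library 1, a log2 fold of 0.38 [0.25, 0.52] by counts and 1.27 by TPM. Masp2 had 234.1 TPM in library 2 and 44.6 TPM in library 1, yet its log2 fold of counts was 0.37 [0.31, 0.44], against 2.39 as a ratio of TPM. The length that the authors' tables assign to Masp2, by which TPM divides, was 1459 bases in library 2 and 2973 in library 1, and different transcripts led in the libraries. Scaling also separates TPM from TMM folds, since Masp1 has 1 transcript of 2752 bases in both libraries. Whether reads of Masp1 and Masp2 were kept apart from those of any opposite-strand genes is not known.

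C3, the protein on which all pathways converge, was the highest complement transcript in both libraries. It had 3059 TPM in library 2 and 1370 TPM in library 1, a mean of 2215 ± 1194 TPM (SD, n = 2). These levels came from 191970 expected counts in library 2 and 47585 in library 1, and the log2 fold was 1.69 [1.68, 1.70] by counts and 1.16 by TPM. Cfb, factor B, which forms the alternative C3-cleaving enzyme with C3b, had 769.8 TPM in library 2 and 104.0 TPM in library 1. Its log2 fold was 1.69 [1.64, 1.73], and 1.48 with the counts of the overlapping Gm20547 added. In TPM, C3 stood at 3.97 times Cfb in library 2 and 13.2 times in library 1.

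The remaining alternative-pathway genes were low in both libraries. Cfp, properdin, which stabilises that enzyme, had 16.7 TPM in library 2 and 1.33 TPM in library 1, a log2 fold of 2.69 [2.25, 3.19]. Of the 5 neutrophil markers 2 were detected in library 2 and 1 in library 1, with summed levels of 3.69 TPM in library 2 and 3.27 TPM in library 1, and Ly6g and Camp were at 0 in both. Cfd, factor D or adipsin, which cleaves factor B, had 21 counts (1.85 TPM) in library 2 and 0 counts in library 1, where 3 counts would be 0.178 TPM. Taking 3 counts as the floor in library 1, Cfd was at least 5.60-fold higher in library 2. Of the 5 adipocyte markers only Fabp4 was detected in each library, and Lep was at 0 in both. Fabp4 gave 10.1 of the summed 11.8 TPM in library 2 and 5.68 of 5.88 TPM in library 1, and was not past 2-fold (-0.18). The part of leukocytes or fat tissue in these differences was not tested.

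The terminal components were split. C8g, the lipocalin-like gamma chain of C8, had 464.9 TPM in library 2 and 60.0 TPM in library 1, a log2 fold of 2.59 [2.49, 2.70], and was the only terminal gene called higher. Whether its reads were kept apart from those of any opposite-strand gene is not known. C9, which polymerises into the membrane pore, had 183.8 TPM in library 2 and 237.8 TPM in library 1, a log2 fold of -1.23 [-1.28, -1.18]. Hc, which encodes C5, had 267.3 TPM in library 2 and 351.7 TPM in library 1, a log2 fold of -0.87 [-0.90, -0.83]. The order of Hc and C9 was the same in both libraries, with Hc above C9, and both were lower in library 2 by TMM, total counts and TPM, while after the GC curve C9 was at 0.04 and Hc at -0.02.

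The alpha and beta chains of C8 are encoded next to each other on chromosome 4, at chr4:104815679-104876398 for C8a and chr4:104766317-104804548 for C8b, and did not move together. C8a had 135.4 TPM in library 2 and 154.8 TPM in library 1, a log2 fold of -0.78 [-0.83, -0.73]. C8b had 125.7 TPM in library 2 and 65.1 TPM in library 1, a log2 fold of 0.06 [-0.01, 0.13]. In the C8 protein the chains stand in equal numbers. In TPM, C8a stood at 1.08 times C8b in library 2 and 2.38 times in library 1, and C8g stood at 3.70 times C8b in library 2 and 0.921 times in library 1.

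C6 and C7, which bind C5b before C8, were the lowest terminal genes. C6 had 5.93 TPM in library 2 and 4.41 TPM in library 1, with a log2 fold of -0.62 [-0.88, -0.36] by TMM-scaled counts and 0.42 by TPM. C7 was close to the limit of these libraries, with 8 counts (0.21 TPM) in library 2 and 14 counts (0.24 TPM) in library 1. Its log2 fold of -1.08 passed 2-fold, but the interval of counting error, from -2.59 to 0.22, includes no difference. C6, C7 and C9 lie on chromosome 15, where C6 spans chr15:4727175-4814967, C7 spans chr15:4988762-5063740 and C9 spans chr15:6445327-6498751.

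Among the soluble regulators the folds ran in both directions. Serping1, the C1 inhibitor, blocks C1r, C1s and the MASP proteases. It had 504.5 TPM in library 2 and 101.9 TPM in library 1, a log2 fold of 1.40 [1.35, 1.46]. After the GC curve it was at -0.15, taken at a mean GC content of 54.5% over its transcripts. Serping1-201, with 98.0% of its TPM in library 2 and 99.5% in library 1, is 52.3% GC. The fold after the curve at that value was not computed. Clu, clusterin, which binds the terminal complex, had 766.2 TPM in library 2 and 333.2 TPM in library 1, a log2 fold of 1.64 [1.59, 1.68] that came to 0.22 after the GC curve. Cfhr2, a plasma protein grouped with the complement regulators, had 587.4 TPM in library 2 and 1024 TPM in library 1, a log2 fold of -1.70 [-1.72, -1.67], the lowest of the 33. Under total-count scaling Cfhr2 stayed past 2-fold lower at -1.12, by TPM it was at -0.80, and after the GC curve it was at -0.03.

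Cfi and C4bp were not past 2-fold by any measure, and their signs turned between measures. Cfi, factor I, which degrades C3b and C4b, had 362.9 TPM in library 2 and 213.4 TPM in library 1. Its log2 fold was -0.12 [-0.16, -0.08] by TMM and turned positive by total counts (0.46), TPM (0.77) and after the GC curve (0.45). C4bp, the C4-binding protein that serves factor I as a cofactor, had 252.0 TPM in library 2 and 254.3 TPM in library 1 (253 ± 1.60 TPM, SD, n = 2). Its log2 fold of -0.53 [-0.57, -0.49] by TMM was 0.05 by total counts, -0.01 by TPM and 0.68 after the GC curve.

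Of the membrane regulators, Cd55, which speeds the decay of the C3-cleaving enzymes, had 9.67 TPM in library 2 and 16.7 TPM in library 1, a log2 fold of -1.67 [-1.87, -1.48]. Cd59a, which keeps C9 from forming a pore in host cells, had 64.1 TPM in library 2 and 60.1 TPM in library 1, a log2 fold of -0.67 [-0.78, -0.56] by TMM and 0.09 by TPM. Its neighbour and near copy Cd59b had 12.2 TPM in library 2 and 4.99 TPM in library 1, and how reads were divided between these copies is uncertain. The receptors for the released fragments C3a and C5a were at the edge of detection. C3ar1 had 0.99 TPM in library 2 and 1.05 TPM in library 1, from 63 counts in library 2 and 99 in library 1. C5ar1 had 0.31 TPM in library 2 and 0.25 TPM in library 1, and its 11 counts in library 2 and 13 counts in library 1 leave a log2 fold of -0.54 with an interval from -1.87 to 0.71. Neither receptor was past 2-fold.

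What the called genes shared was base composition. GC content here is the unweighted mean over a gene's transcripts in GENCODE M21, kept where their length lay within 10% of the deposited one. Transcripts with few counts thus weigh as much as the leading one. GC content was known for 32 of the 33 genes (not for Masp1). The 16 genes past 2-fold higher in library 2 had a median GC content of 54.3% (range 49.1% to 59.5%), and the 4 past 2-fold lower had 42.7% (39.4% to 47.2%). The 12 others lay between, at 46.9% (43.0% to 53.8%). Across the 32 genes Spearman's rho of log2 fold with GC content was 0.94, and across the 12113 tested nuclear genes it was 0.87. These are descriptions, since all points come from the same pair of libraries.

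**Figure D4:**
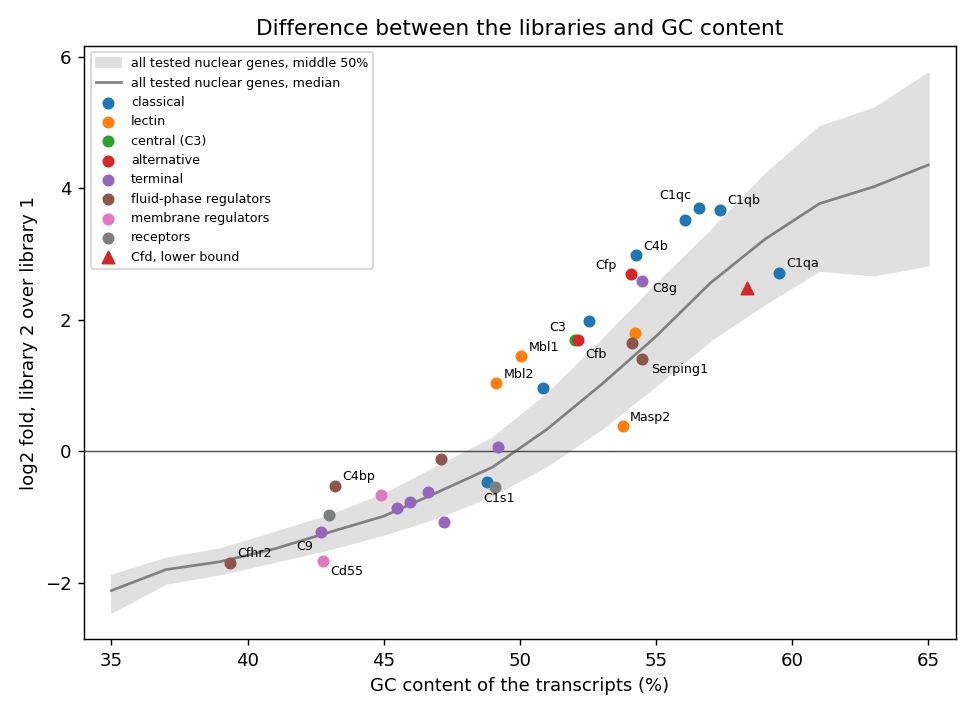
Log2 fold of library 2 over library 1 (vertical axis) against the GC content of the transcripts in percent (horizontal axis) for the 32 complement genes with a value, coloured by role, over the median (line) and middle 50% (band) of all tested nuclear genes. Most complement genes under 50% GC lie in or near the band, while C3, C4b, Mbl1, Mbl2, C1qb and C1qc lie above it.

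The low end of this range is best seen in Cfhr2, at 39.4%, and C9, at 42.7%. For each, the coding window of 90 bases with the lowest GC content in the leading transcript is given below, 5′ to 3′ from GENCODE M21 on GRCm38, with G and C in capitals. They are shown as the counterpart of the C1q stretches above.
Cfhr2-201, chr1:139831132-139831221, minus strand, exon 2 of 6: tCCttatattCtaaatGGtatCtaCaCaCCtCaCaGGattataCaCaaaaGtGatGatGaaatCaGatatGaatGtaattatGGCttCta
C9-201, chr15:6483204-6483293, plus strand, exon 6 of 11: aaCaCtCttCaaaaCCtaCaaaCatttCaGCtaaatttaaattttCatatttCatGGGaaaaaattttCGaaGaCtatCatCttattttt
The Cfhr2 window is 31.1% GC and the C9 window 24.4%.

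Read by classes of GC content, the complement genes at the low end stood where other genes did. Under 45% GC the 6 complement genes had a median log2 fold of -1.10, beside -1.34 over all genes of the class. Between 45% and 50% the 9 complement genes had -0.54, beside -0.53 over all. Between 50% and 55% the 12 complement genes had 1.69, beside 0.78 over all, and 10 of them were called higher. The share of all genes of that class called higher was not computed, so this count has no background. The class is also wide, since the median over all genes was 0.33 near 51% GC, 1.01 near 53% and 1.74 near 55%. C4b, Fcna, Cfp, C8g, Serping1 and Clu lie near its upper end, so the class medians are not matched for GC content. At 55% and over the 5 complement genes had 3.52 with Cfd at its bound, beside 2.72 over all.

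When a smooth curve of fold on GC content, fitted over the nuclear genes, was subtracted, 10 of 32 complement genes were past 2-fold higher, where 11.5% of all genes were, and 0 were past 2-fold lower, where 11.1% of all genes were. With Cfd at its bound the count was 9, since its value against 3 counts was then -0.57. The median fold was 0.30 (0.27 with Cfd at its bound), beside -0.0039 over all genes. Among genes with a mean of at least 10 TPM, 7 of 25 complement genes (28.0%) were past 2-fold higher and 0 lower, beside 12.6% higher and 8.15% lower of 4489 genes. Complement genes were not tested as a set against others, so this is a description of the list.

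The genes that stayed past 2-fold higher after the curve, other than Cfd, came from several arms. They were C4b at 1.50, Mbl1 at 1.40, C4a at 1.32, C1qc at 1.30, Cfp at 1.29, Mbl2 at 1.23, C2 at 1.13, C8g at 1.04 and C3 at 1.00. Of these, C4a rests on 4.49 expected counts in library 1. With the counts of Gm20547 added, C2 was at 0.42 by TMM before any curve, and its value after the curve was not computed. C1qb and Cfb lay just under the threshold, both at 0.97. C1qa turned to -0.70 and Serping1 to -0.15, while Clu came to 0.22. On the low side, Cfhr2 came to -0.03 and C9 to 0.04, so the genes called lower by raw folds were near 0 once GC content was taken off, apart from C7 at -0.52 and Cd55 at -0.41. The lowest value was that of Masp2, at -0.93, taken at its unweighted mean of 53.8% GC. Masp2-201, at 47.9% GC, held 3106 of its 4595 counts in library 2 and 2812 of 2834 in library 1. Values after a curve at the GC content of the leading transcripts were not computed. Why the libraries differed by GC content was not tested.

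The libraries also differed in which transcript of a gene led. Of 21 complement genes with at least 2 transcripts and 1 TPM or more in both libraries, 8 (38.1%) had another leading transcript by isoform share (percent of the gene's TPM), where 30.3% of 6525 genes did. The 8 were C2, Fcna, Masp2, C3, Hc, C8a, C8g and Clu. In 7 of them the transcript that led in library 1 was the shorter, and in 7 it had the lower GC content. The exception in length was Masp2 and the exception in GC content was C8g.

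**Figure D5:**
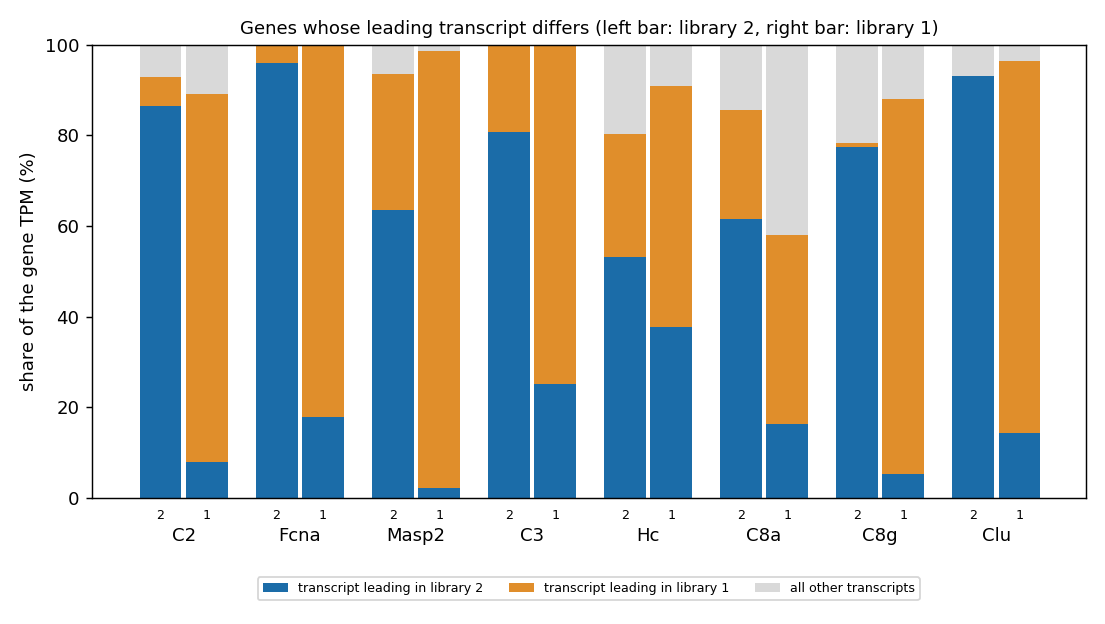
Share of each gene's TPM, in percent, taken by the transcript that leads in library 2 (blue), the transcript that leads in library 1 (orange) and all others (grey), for the 8 genes whose leader differs, with library 2 as the left bar and library 1 as the right bar of each pair. Clu-201 holds 93.1% in library 2 and 14.3% in library 1, and Masp2-201 holds 30.0% in library 2 and 96.3% in library 1.

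C3 illustrates how short models can lead by abundance while holding few counts. The full-length C3-201, of 5136 bases, took 80.8% of C3 TPM in library 2 and 25.2% in library 1. C3-203, a model of 554 bases that all lie within C3-201, took 19.1% in library 2 and 74.8% in library 1. In counts, C3-203 held only 18.2% of the gene's total in library 1. The estimated length of C3, by which TPM divides, was therefore 4254 bases in library 2 and 1706 in library 1, and its TPM fold of 1.16 was below its count fold of 1.69. These folds also differ in scaling, since the medians over all tested genes were 0.84 by TPM and 0.04 by TMM-scaled counts.

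Clu and Fcna showed the same form. Clu-201, of 1811 bases, took 93.1% in library 2 and 14.3% in library 1, while Clu-206, of 632 bases, took 0.07% in library 2 and 82.1% in library 1. Fcna-201, of 1374 bases, took 96.0% in library 2 and 17.8% in library 1, while Fcna-202, a noncoding model of 560 bases, took 3.98% in library 2 and 82.2% in library 1. Unlike C3-203, these models also held most of the counts of their genes in library 1, at 59.0% for Clu-206 and 59.4% for Fcna-202. For Hc and C8a the short leaders of library 1 held 9.36% and 10.7% of the counts.

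C2 and C8g exchanged coding models of more similar length. C2-201, of 2641 bases, took 86.4% in library 2 and 8.06% in library 1, and C2-206, of 2157 bases, took 6.38% in library 2 and 81.1% in library 1. C8g-202, of 1150 bases, took 77.5% in library 2 and 5.39% in library 1, and C8g-201, of 822 bases, took 0.76% in library 2 and 82.6% in library 1. Masp2 went the other way in length. Masp2-202, of 738 bases and 55.6% GC, took 63.5% in library 2 and 2.22% in library 1. Masp2-201, the long model of 3058 bases and 47.9% GC, took 30.0% in library 2 and 96.3% in library 1. The gene is also known to give a truncated product that lacks the protease domain, but whether these models stand for it was not tested.

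The other 13 genes with several transcripts kept their leader. Cfhr2-201 took 98.6% in library 2 and 99.4% in library 1, Serping1-201 took 98.0% in library 2 and 99.5% in library 1, and C9-201 took 94.7% in library 2 and 92.2% in library 1. The called genes Cfhr2, Serping1 and C9 thus had nearly the same make-up of transcripts in both libraries. Others shifted more while keeping their leader. Cfb-206 took 46.1% of Cfb TPM in library 2 and 42.1% in library 1, where Cfb-202 came close to it, with 12.1% in library 2 and 40.9% in library 1. C4bp-201 took 71.1% in library 2 and 50.2% in library 1. The largest change of any transcript's share was 28.8 percentage points in Cfb, 20.9 in C4bp, 15.3 in C6 and 10.3 in Cd59a. All isoform shares are estimates that divide reads shared by overlapping models.

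A further 25 genes of the pathway, from a list chosen with earlier results of these data known, were read beside the 33. Of them 6 were past 2-fold higher in library 2 (33.0% of all tested genes were), 8 were past 2-fold lower (24.0% of all tested genes were), 5 were not past 2-fold and 6 had too few counts to be tested, with a median fold of -0.26. The highest was Vtn, vitronectin, which keeps the terminal complex out of membranes, at 1313 TPM in library 2 and 205.2 TPM in library 1 (log2 fold 2.82). Cpn1 and Cpn2, the chains of carboxypeptidase N, which trims C3a and C5a, were also higher, with Cpn1 at 149.6 TPM in library 2 and 7.93 TPM in library 1 (log2 fold 3.28). Cpn2 had 110.8 TPM in library 2 and 28.9 TPM in library 1 (log2 fold 1.05). The rest of those called higher were C1rl at 1.35, Colec11 at 1.53 and Itgb2 at 1.50.

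Among the genes called lower, Vsig4, a Kupffer cell receptor for C3 fragments, had 28.6 TPM in library 2 and 38.2 TPM in library 1 (log2 fold -1.34, and -0.52 after the GC curve). Also called lower were Cfhr3, Colec10, Cr1l, Cd46 and Cd93, with log2 folds from -2.11 to -1.08. After the GC curve 1 of these 25 genes, Cpn1 at 1.97, was past 2-fold higher and 0 were lower, beside 11.5% higher and 11.1% lower of all genes, and Vtn was at 0.92.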

How the data were processed

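PolyA RNA was sequenced in 2 technical libraries of 1 mouse liver, which form 1 group. The authors deposited expected counts, per gene and per transcript and not normalized, made from alignments to mm10 with annotation M4, per the file headers and listings. The deposited TPM values are scaled by length and by the sum over all entries, and the authors' isoform shares give each transcript as a percent of its gene's TPM. The strand setting, tool and aligner were not given in the sources used here. It is therefore not known whether reads of C8g, Masp2, Masp1 and C2 were kept apart from those of any overlapping genes on the opposite strand. Names, positions, GC content and sequences come from the later GENCODE M21 annotation of mm10.

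Rounded counts were scaled over every gene whose counts summed to 20 or more, with TMM (edgeR 4.0.16, factors 1.22 for library 2 and 0.818 for library 1). Folds have a prior count of 0.5 and exact Clopper-Pearson 95% intervals for counting error, and a count of 0 was set to 3 for bounds. The GC curve is a loess fit (span 0.3) over nuclear genes. Fold calculations were tested on simulated counts drawn from a shared profile with some genes changed. That simulation held no difference by GC content, so it does not show how the folds behave under the one seen here. All 33 genes are named, and other pathway genes are named if past 2-fold or among the 6 highest, except that some are not reported here. The genes, lists and settings were chosen with earlier results of these data known. Figures were drawn with matplotlib 3.10.9. DESeq2 1.42.0 gave the median-of-ratios alternative.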

Additional observations from a re-analysis of the deposited data

How the results depend on the processing

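With DESeq2 size factors, TMM without mitochondrial genes, or no count filter, the counts of complement genes past 2-fold stayed within 1.5 times their values, at 16 or 17 higher and 4 lower, and a summed count of at least 200 gave 15 higher and 3 lower. Past 2-fold lower were 2 by total counts and 0 by TPM ratio, and after the GC curve 10 were higher and 0 lower. Of the other pathway genes, 4 were lower by total counts, 1 by TPM ratio and 5 with a summed count of at least 200, and after the GC curve 1 was higher and 0 were lower. After the GC curve, signs turned for the called genes C1qa (-0.70), C9 (0.041) and Serping1 (-0.15). They also turned for the uncalled genes Masp2 (-0.93), C6 (0.04), Cfi (0.45), C4bp (0.68), Cd59a (0.28) and C3ar1 (0.27). These signs rest on the unweighted mean GC content, which for Masp2 and Serping1 lay above that of the transcript with most counts. Chosen after seeing the data, requiring a counting interval without 0 left 16 higher and 3 lower, and adding the counts of Gm20547 gave 0.42 for C2 and 1.48 for Cfb. With all TPM as the denominator the complement share was 0.734%. Leaving out each library in turn gave 29 to 30 genes detected, a share of 1.30% to 1.33% and a median level of 5.48 to 7.08. The number of genes with another leading transcript was 7 of 16 at 10 TPM or more and 8 of 23 above 0 TPM. No paired analysis was possible because both libraries belong to 1 group. Depth limits C7, C5ar1, C3ar1, Cfd and C4a, which had under 100 counts in each library. The cause of these dependences was not tested.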
